A study of Saccharomyces cerevisiae with 3 samples.

Results

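Lipid synthesis was followed through 10 Saccharomyces cerevisiae genes: ACC1, FAS1, FAS2, ELO1 and OLE1 of fatty acid synthesis, INO1, CHO1, CHO2 and OPI3 of phospholipid synthesis, and the regulator OPI1. They were chosen by name, as the probe sets whose upper-case gene symbol in the array's annotation is one of these, and each matched 1 probe set, 10 of the 10762 non-control probe sets and of the 5498 that carry an S. cerevisiae gene. The 10 probe set names all end in the plain suffix by which the array maker marks probes written for a single transcript.

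The yeast was of the W303 background, MAT-alpha, and carried cdc15-2, a temperature-sensitive allele of a kinase that cells need to leave mitosis. It had grown in minimal medium at 23 °C in a fermentor and was taken 340 minutes after it left the restrictive temperature. All 3 arrays carry this same background, 1 array with 100% baseline, 1 with 99% baseline and 1% spike, and 1 with 90% baseline and 10% spike. What the spike was, and how much inositol or choline the medium held, is not given in the sources used here. There is 1 array per group, so no value has an error, no test between arrays was run, and all differences describe these 3 arrays. The alpha-cell genes STE3 and MF(ALPHA)1 lay at 13.754 and 14.367 (log2) in the baseline array, at percentiles 95.4 and 98.8 of S. cerevisiae probe sets, and the a-cell genes STE2 and BAR1 at 10.302 and 9.596, at percentiles 37.1 and 21.6.

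Yeast builds most of its fatty acids in the cytosol. Acetyl-CoA carboxylase makes malonyl-CoA, the fatty acid synthase complex extends it to saturated chains, elongases lengthen these and a desaturase introduces the double bond. The chains enter phospholipids through phosphatidic acid and CDP-diacylglycerol, from which phosphatidylserine and then phosphatidylethanolamine and phosphatidylcholine, or with inositol phosphatidylinositol, are made. Many of these genes are activated by the INO2 and INO4 proteins and repressed through OPI1 when inositol is plentiful. INO1, which makes inositol phosphate from glucose phosphate, is the best known of the genes that inositol represses.

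The 10 genes were bright and nearly equal in all 3 arrays. In the baseline array all 10 lay above the median of the S. cerevisiae probe sets (10.814), and 8 of them lay above percentile 90. A percentile is a place among the S. cerevisiae probe sets of 1 array, from dim to bright. It is not an amount of RNA, since probe sets differ in how strongly they bind, and any order of genes given here orders the probe sets' brightness only. No gene reached a 2-fold difference in any comparison, where at most 0.0546% of the S. cerevisiae probe sets did. The 1% array gave the baseline value for 10 of 10 genes, where 62.9% of the S. cerevisiae probe sets were equal. The 10% array gave it for 6 of 10, where 27.7% were equal. The other 4, CHO1, CHO2, ELO1 and OLE1, were higher in the 10% array by 0.009 to 0.028 (log2), at most 1.02-fold. INO1, whose level depends on inositol supply in yeast, was at 11.498 in each of the 3 arrays, at percentile 66.2 in the baseline array.

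**Figure D1:**
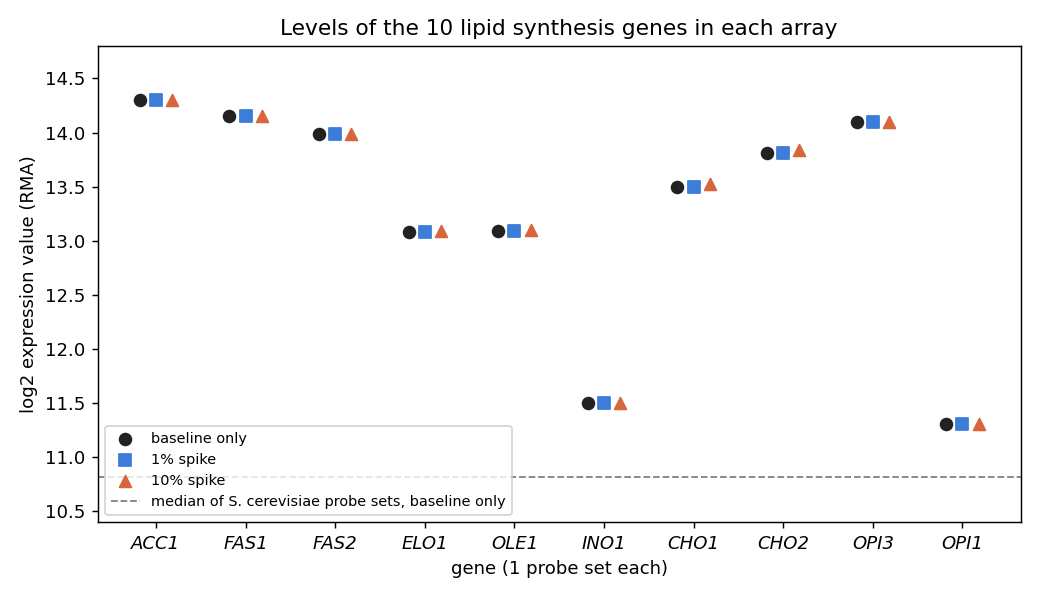
Log2 expression values (RMA) of the 10 genes, 1 probe set each, in the array with baseline only (circles), 1% spike (squares) and 10% spike (triangles); the dashed line is the median of the S. cerevisiae probe sets in the baseline array, 10.814. The 3 symbols of each gene lie at nearly the same height, and INO1 and OPI1 lie below the other 8.

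Among the fatty acid genes, ACC1 encodes acetyl-CoA carboxylase, the enzyme of the first committed step. Its log2 value was 14.303 with baseline only, 14.303 with 1% spike and 14.303 with 10% spike. Of the 5498 S. cerevisiae probe sets, 82 lay above it with baseline only, 82 with 1% spike and 84 with 10% spike. It was the brightest of the 10 in every array.

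FAS1 and FAS2 encode the beta and alpha subunits of the cytosolic fatty acid synthase, which assemble into one complex. FAS1 was at 14.156 in each of the 3 arrays. FAS2 was at 13.989 in each of the 3 arrays. Both subunit genes thus gave the same value with and without spike. Their percentiles in the baseline array were 98.0 for FAS1 and 96.9 for FAS2.

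ELO1 encodes an elongase that extends medium-chain fatty acids. It was at 13.082 with baseline only, 13.082 with 1% spike and 13.095 with 10% spike, a difference of 0.013 at 10% spike. OLE1 encodes the only fatty acid desaturase of this yeast and is controlled by the membrane-bound factors MGA2 and SPT23. It was at 13.094 with baseline only, 13.094 with 1% spike and 13.103 with 10% spike, a difference of 0.009. For both genes the 10% array was the highest, by about 1.01-fold. The sign did not hold for either, since a second quantile normalization gave -0.01 for ELO1 and -0.015 for OLE1, and removing the trend with level gave -0.002 and -0.006.

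INO1 encodes inositol phosphate synthase, the enzyme of inositol synthesis. Its value of 11.498 did not differ between the arrays to the 3 decimals of the deposited table. Because other probe sets moved around it, its place counted from the brightest S. cerevisiae probe set went from 1857 with baseline only to 1866 with 1% spike and 1885 with 10% spike. These places correspond to percentiles of 66.2, 66.1 and 65.7. INO1 thus lay above the median of the S. cerevisiae probe sets in all 3 arrays. The series holds no array of yeast grown with a known amount of inositol, so the value cannot be placed between a repressed and a derepressed level.

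CHO1 encodes phosphatidylserine synthase, which joins serine to CDP-diacylglycerol. It was at 13.495 with baseline only, 13.495 with 1% spike and 13.523 with 10% spike. CHO2 encodes the methyltransferase that starts the conversion of phosphatidylethanolamine to phosphatidylcholine. It was at 13.809 with baseline only, 13.809 with 1% spike and 13.837 with 10% spike. Both were higher by 0.028 at 10% spike, which is 1.02-fold and the largest difference among the 10 genes. Under the 3 other scalings tried the difference stayed above 0, from 0.013 to 0.046 for CHO1 and from 0.013 to 0.046 for CHO2. These scalings re-use the same arrays. Centring moved the median of all probe sets by 0.018, so it could not reverse the sign of a positive difference. CHO1 and CHO2 were also the 2 genes that moved up in place, which re-reads the same values. CHO1 went from 342 with baseline only to 332 with 10% spike and CHO2 from 235 to 227. The difference of 0.028 lay inside the central range of the brightest S. cerevisiae probe sets, -0.092 to 0.103, described below. Whether it exceeds array-to-array variation was not tested.

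OPI3 encodes the methyltransferase that completes phosphatidylcholine. It was at 14.097 in each of the 3 arrays, where CHO2, which acts before it in the pathway, was higher by 0.028 with 10% spike. Its place went from 129 with baseline only to 130 with 1% spike and 140 with 10% spike at an equal value.

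OPI1 encodes the repressor that holds back INO1 and other INO2/INO4 targets when inositol is plentiful. It was at 11.307 in each of the 3 arrays, the dimmest of the 10, at percentile 62.2 in the baseline array. Its place went from 2077 with baseline only to 2080 with 1% spike and 2104 with 10% spike.

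The order of brightness was the same in all 3 arrays. It ran ACC1, FAS1, OPI3, FAS2, CHO2, CHO1, OLE1, ELO1, INO1 and OPI1. Each gap between neighbours was wider than either neighbour's range over the 3 arrays except the gap between OLE1 and ELO1. That gap was 0.012 without spike and at 1% spike and 0.008 at 10% spike, against a range of 0.013 for ELO1. For 6 of the 10 genes the range over the 3 arrays was 0, so any gap between neighbours among them passes. Their equal values also fix their order, and the range is not a measure of error. The widest gap, 1.584 in the baseline array, separated ELO1 from INO1.

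**Figure D2:**
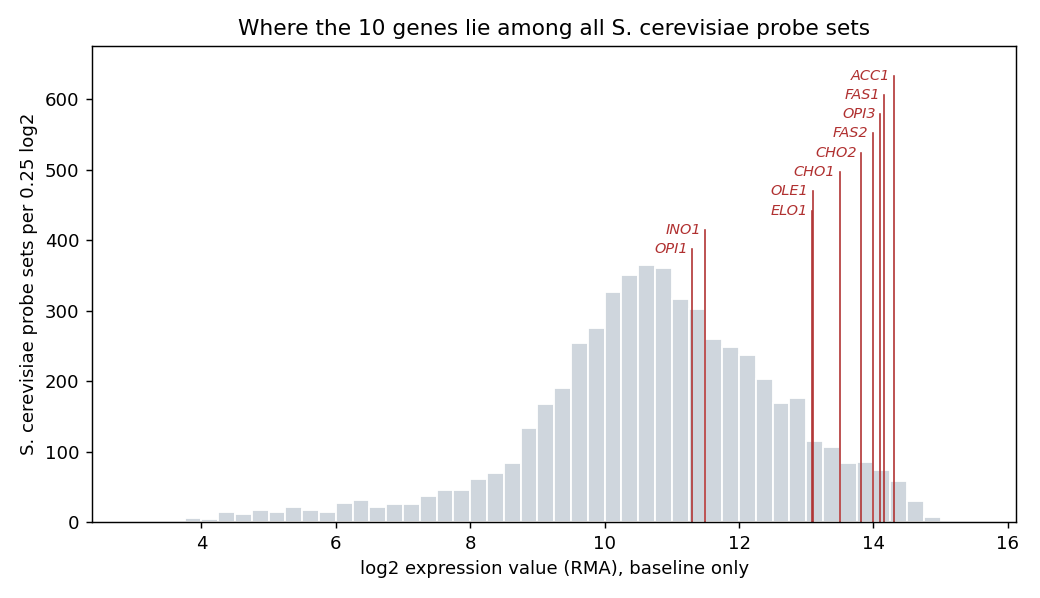
Number of S. cerevisiae probe sets (of 5498) per 0.25 log2 of the baseline array's expression value (RMA), with a vertical line at each of the 10 genes. Of the 10, 8 lie in the bright tail from 13.082 to 14.303, and OPI1 and INO1 lie at 11.307 and 11.498, above the median of 10.814.

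Each comparison was then read against all S. cerevisiae probe sets. At 1% over baseline, 0 of the 10 genes were 2-fold different, where 0% of the S. cerevisiae probe sets were. With a threshold of 0.1 on the log2 scale (1.07-fold) the count was also 0 of 10, where 1.98% of the S. cerevisiae probe sets passed. The count of exactly equal values was 10 of 10, where 62.9% of the S. cerevisiae probe sets were equal.

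At 10% over baseline, 0 of 10 genes were 2-fold different, where 0.0546% of the S. cerevisiae probe sets were, and 0 of 10 passed 0.1, where 17.6% did. Equal values were found for 6 of 10 genes, where 27.7% of the S. cerevisiae probe sets were equal. None of the 10 was lower, where 27.2% of the S. cerevisiae probe sets were lower and 45.1% higher. The median difference was 0 for the 10 genes and 0 for the S. cerevisiae probe sets.

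At 10% over 1%, no gene was 2-fold different, where 0.0546% of the S. cerevisiae probe sets were, and none passed 0.1, where 13.3% did. Equal values were found for 6 of 10, where 34.6% of the S. cerevisiae probe sets were equal. This comparison shares the 10% array with the preceding one, and because the 1% and baseline values of the 10 genes were equal, it gave the same differences for each gene. RMA's median polish over few arrays can return exactly equal summaries, and its part in these counts was not tested. After a second quantile normalization the number of equal genes at 1% over baseline was 1, and at 10% over baseline 0, although no gene then differed by more than 0.031.

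The spread of differences at 10% over baseline narrowed with brightness. The S. cerevisiae probe sets were put into 10 bins of nearly equal size by their level in the baseline array. In the dimmest bin, 95% of differences lay between -0.469 and 0.145. In the brightest bin, which holds 8 of the 10 genes, they lay between -0.092 and 0.103, and in bin 7 counted from the dimmest, which holds INO1 and OPI1, between -0.104 and 0.175. All 10 genes lay within these ranges. The shares that passed 0.1 were 5.09% and 13.2% in the brightest bin and bin 7 and 39.5% in the dimmest. The shares of equal values were 24.7% and 27.2%, against 31.3% in the dimmest.

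**Figure D3:**
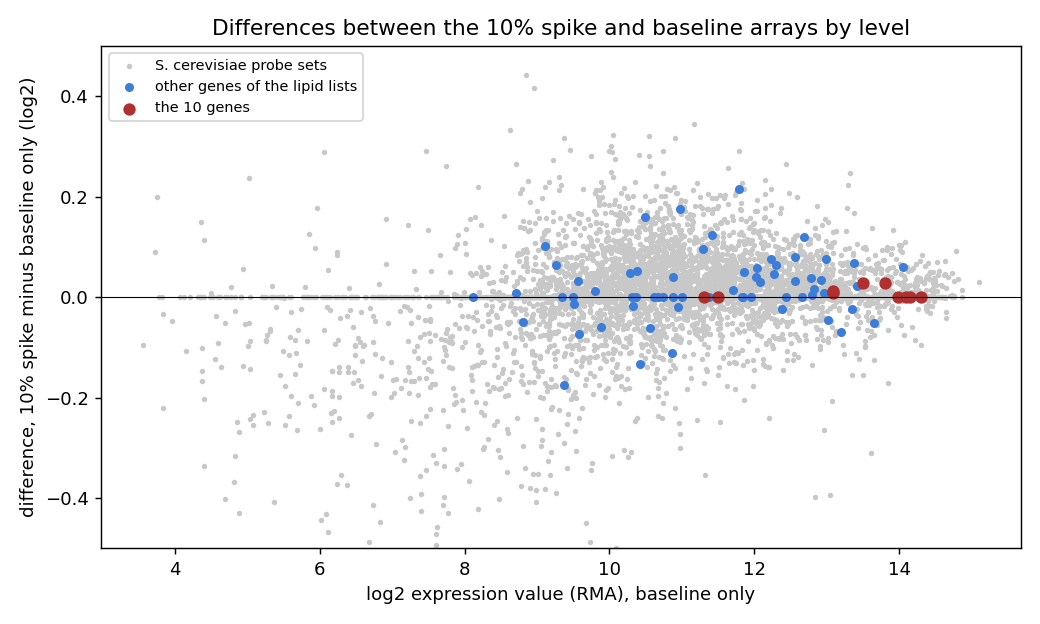
Difference between the 10% spike and baseline arrays (log2, vertical axis) against the baseline array's log2 value (horizontal axis) for S. cerevisiae probe sets (grey), other genes of the lipid lists (blue) and the 10 genes (red); 18 of 5498 probe sets lie beyond the axis limits of 0.5 and are not drawn. The 10 genes lie between 0 and 0.028, and the grey cloud is widest at low levels, where 95% of the dimmest bin lie between -0.469 and 0.145.

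No gene could be named as most like INO1 in its pattern. Its pair of differences from the baseline array was 0 and 0, and 1420 of the 5488 S. cerevisiae probe sets outside the 10 genes (25.9%) had that same pair over these 3 arrays, as did ACC1, FAS1, FAS2, OPI3 and OPI1.

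Other genes of fatty acid synthesis, elongation and activation were read as a list of 22 measured genes. At 1% over baseline 0 of 22 passed 0.1, beside 1.98% of all S. cerevisiae probe sets. At 10% over baseline 1 of 22 (4.55%) did, beside 17.6% of all S. cerevisiae probe sets. That 17.6% is not matched for level, and the share fell from 39.5% in the dimmest bin to 5.09% in the brightest. The median percentile in the baseline array was 75.7 for this list. It was 70.8, 42.8 and 85.8 for the phospholipid, regulator and INO2/INO4 target lists below. The 1 gene past 0.1 was CEM1, a mitochondrial fatty acid synthase component, at 9.115 with baseline only, 9.109 with 1% spike and 9.216 with 10% spike, a difference of 0.101. It no longer passed 0.1 after a second quantile normalization, and as a dim gene it dropped out under the filter on low levels, so that 0 genes of the list passed in either case. The next in size were TSC13, a reductase of the elongation cycle, higher by 0.076, and ACP1, the mitochondrial acyl carrier protein, higher by 0.068. The brightest were ACB1, the acyl-CoA binding protein, at 13.655 in the baseline array, and ACS2, an acetyl-CoA synthetase, at 13.422. The dimmest was OAR1, a mitochondrial reductase, at 8.122 in each of the 3 arrays. The list's median difference was 0.009 at 10% over baseline, with 11 genes higher (50%), 4 lower (18.2%) and 7 equal (31.8%), close to the 45.1%, 27.2% and 27.7% of all S. cerevisiae probe sets.

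Paralogs of ACC1 and ELO1 were read beside them, picked for their role after their values had been seen. HFA1, the mitochondrial counterpart of ACC1, was at 10.332 with baseline only, 10.332 with 1% spike and 10.314 with 10% spike, where ACC1 was equal throughout. ELO2 and ELO3, the elongases of longer chains, were higher by 0.031 and 0.035 at 10% spike, where ELO1 was higher by 0.013.

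Other genes of phospholipid synthesis and of inositol or choline supply made a list of 28 measured genes. None passed 0.1 at 1% over baseline, beside 1.98% of all S. cerevisiae probe sets. At 10% over baseline 6 of 28 (21.4%) did, beside 17.6% of all S. cerevisiae probe sets. Of these 6, 5 were higher and 1 was lower. SCT1, an acyltransferase that starts glycerolipid synthesis, was at 11.794 with baseline only, 11.834 with 1% spike and 12.01 with 10% spike, a difference of 0.216 (1.16-fold). GEP4, a phosphatase of cardiolipin synthesis, was higher by 0.175 and PSD2, a phosphatidylserine decarboxylase, by 0.159.

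EPT1, which makes phosphatidylethanolamine from CDP-ethanolamine, was higher by 0.124 and CDS1, the CDP-diacylglycerol synthase, by 0.119. CKI1, choline kinase, was the lower one of the 6, at -0.111. The list's median was 0.024, with 18 genes higher (64.3%), 6 lower (21.4%) and 4 equal (14.3%), beside 45.1%, 27.2% and 27.7% of all S. cerevisiae probe sets. After a second quantile normalization 4 of the 28 passed 0.1. By the same rule as for the 10 genes, no gene of either list was 2-fold different.

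Genes of inositol and choline supply in that list, and the brightest and dimmest of the whole list, are given here beside INO1. ITR1, the main inositol transporter and itself a target of INO2 and INO4, was at 14.058 with baseline only, 14.085 with 1% spike and 14.118 with 10% spike, at percentile 97.4 in the baseline array. PIS1, which joins inositol to CDP-diacylglycerol, was at 12.969 without spike and 12.978 in both spiked arrays. The dimmest of the whole list were GIT1, a transporter of glycerophosphoinositol, at 8.804, 8.804 and 8.754 with baseline only, 1% and 10% spike, and EKI1, ethanolamine kinase, at 9.569 without spike and 9.602 in both spiked arrays. Named after their values had been seen, ITR2, the second inositol transporter, was at 11.71 with baseline only and 11.725 with 10% spike. INM1, an inositol monophosphatase, stayed at 11.835 in each of the 3 arrays and HNM1, the choline transporter, at 12.658. Equal values in all 3 arrays, as for INO1, were found for 25.9% of the S. cerevisiae probe sets. In this list they were found for 4 of 28 genes (14.3%), INM1 and HNM1 among them.

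**Figure D4:**
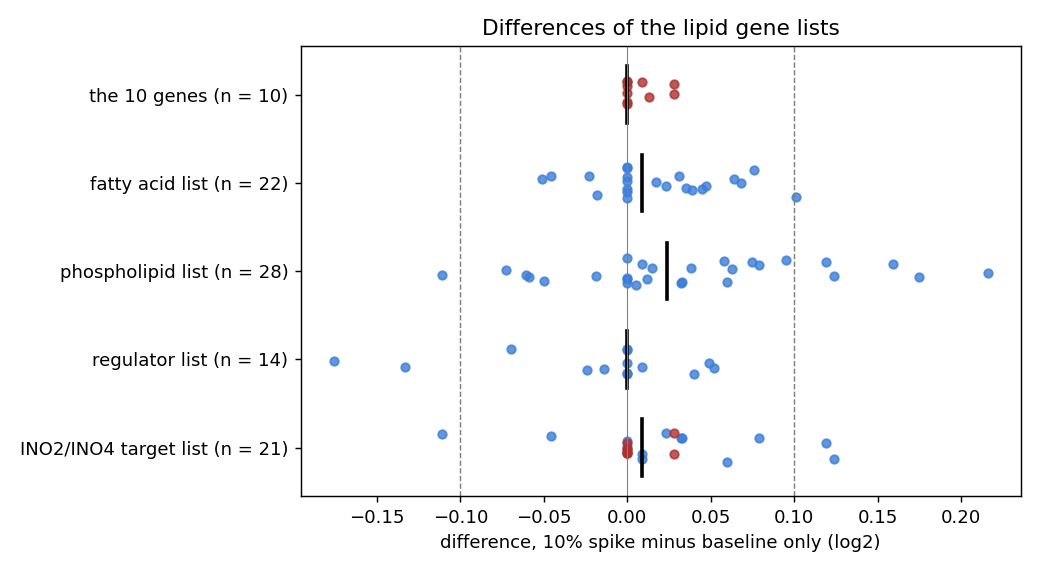
Difference between the 10% spike and baseline arrays (log2, horizontal axis) for each of the 10 genes (red) and each gene of the 4 wider lists (blue, with the 10 genes in red where a list holds them); black bars are medians and dashed lines mark 0.1 either way. The 10 genes lie between 0 and 0.028, and the phospholipid list spans -0.111 to 0.216.

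Regulators of these genes made a list of 14. At 1% over baseline 0 of 14 passed 0.1, where 1.98% of all S. cerevisiae probe sets passed. At 10% over baseline 2 of 14 (14.3%) did, both lower, where 17.6% of all S. cerevisiae probe sets passed. The regulators' share was thus no higher than the background. Without the dim genes 1 of the 2 was left. MGA2, an activator of OLE1, was at 9.374 with baseline only, 9.344 with 1% spike and 9.198 with 10% spike, a difference of -0.176. INO4, a partner in the INO2/INO4 activator, was at 10.417, 10.417 and 10.284 in the same order, a difference of -0.133. INO2, the other partner, was at 8.707, 8.707 and 8.716, at percentile 10.6 in the baseline array, and was the dimmest of the list.

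SCS2, the membrane protein that holds OPI1 at the endoplasmic reticulum, was the brightest regulator at 13.199 in the baseline array and differed by -0.07 at 10% spike. RSP5, a ubiquitin ligase that acts on MGA2 and SPT23, was at 12.386 in the baseline array and differed by -0.024. OLE1, which MGA2 activates, was higher by 0.009 at 10% spike, and INO1, which INO4 activates, was equal. The sign for OLE1 did not hold under other scalings, and no link between activator and target values was tested. The list's median difference was 0.

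Genes listed as targets of INO2 and INO4 made a list of 21, which holds 8 of the 10 genes (all but ELO1 and OLE1). Among these 8, 6 gave equal values in all 3 arrays and 2, CHO1 and CHO2, were higher by 0.028 at 10% spike. Among the other 13 targets, 2 gave equal values in all 3 arrays, and at 10% over baseline 9 were higher, 2 lower and 3 passed 0.1, namely EPT1, CDS1 and CKI1. Of all S. cerevisiae probe sets, 45.1% were higher, 27.2% lower and 17.6% past 0.1. After a second quantile normalization 1 of the 21 targets passed 0.1 in place of 3, and with centred arrays 2. The share with equal values in all 3 arrays was 25.9% over the S. cerevisiae probe sets. The brightest targets were ACC1 and FAS1 and the dimmest INO2 and EKI1. In the baseline array 19 of the 21 lay above the median of the S. cerevisiae probe sets.

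Depth has no counterpart on these arrays, and their number limits the precision. The values of the table ran from 3.465 to 15.13, and the median over S. cerevisiae probe sets was 10.814, 10.82 and 10.84 in the baseline, 1% and 10% arrays. A background diluted to 90% would lose 0.152 on the log2 scale in absolute terms. No such difference was seen in these 10 genes, but the values cannot show whether such a loss occurred. What the spike was and which arrays were normalized together are not given. The 3 arrays had nearly the same distribution of values, and what part normalization had in this was not tested.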

How the data were processed

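Total RNA of the yeast was converted to biotin-labelled RNA and hybridized to 3 arrays, per the labels' protocols. The authors deposited 1 value for every probe set on each array, made with RMA per the submitters' processing notes and read here as log2. No label names the scale; RMA commonly returns log2, and the values, 3.465 to 15.13, fit it. Which RMA version and genome build were used, and which arrays were normalized together, is not given in the sources used here. Deposited values entered unaltered.

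Of 10928 probe sets, 166 controls were left out. Symbols came from the platform annotation and were checked through gene identifiers against S. cerevisiae assembly R64 of RefSeq, which gave 5498 probe sets and 5449 genes. Differences of log2 values were rounded to 3 decimals, and values under 0.0005 apart counted as equal. Thresholds were 1 (2-fold) and 0.1. Percentiles and places were taken among S. cerevisiae probe sets. With 1 array per group no test was run. The genes and the 4 lists were chosen with earlier results of these data known. All 10 genes were named; of each list, the 3 genes with the largest difference at 10% over baseline and the 2 brightest and 2 dimmest were named, with exceptions stated. Alternatives were a second quantile normalization, centred arrays, a lowess trend removed (span 0.3), another set for the percentiles, a filter on low levels and, chosen after seeing the data, a wider tolerance for equal values. The counting was tested on simulated data, with changes placed only in probe sets dimmer than all 10 genes, so their range of levels was not covered. No sequence was read: the sequences of these genes were not used here, and the planned promoter search was not run. Python 3.11.15, pandas 2.3.3 and statsmodels 0.14.6 were used.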

Additional observations from a re-analysis of the deposited data

How the results depend on the processing

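No paired analysis was possible because each group holds 1 array. The counts of the 10 genes past 2-fold and past 0.1 (0 in each comparison) held under every alternative run on them. Their median difference at 10% over baseline went from 0 to -0.017, 0.018 and -0.014 under the 3 other scalings. Medians of levels and differences moved by less than the standard deviation of differences over S. cerevisiae probe sets (0.033, 0.101 and 0.085 in the 3 comparisons). That limit is wider than any deposited difference of the 10 genes, so staying within it says little. Under a second quantile normalization their differences at 10% over baseline ran from -0.031 to 0.02, with centred arrays from 0.018 to 0.046, and with the trend on level removed from -0.015 to 0.013, so the sign of so small a difference depended on the setting. The median of all probe sets moved by -0.014, 0.018 and -0.001 under these 3. The count of exactly equal values held at 10 for 1% over baseline with the trend on level removed, and went to 1 after quantile normalization and to 0 with centred arrays. For 10% over baseline and for 10% over 1% it went from 6 to 0 under all 3. Values within 0.01 of each other numbered 10, 7 and 7 in the 3 comparisons. Ranked among all 10762 non-control probe sets, the median percentile of the 10 genes was 97.3, 97.2 and 97.3 in the baseline, 1% and 10% arrays, against 94.8, 94.8 and 94.9 among S. cerevisiae probe sets. At 10% over baseline, the fatty acid list's count past 0.1 went from 1 to 0 after quantile normalization and with dim genes left out, the regulator list's from 2 to 1 with dim genes left out, that of the INO2/INO4 targets from 3 to 1 after quantile normalization and to 2 with centred arrays, and the phospholipid list's from 6 to 4 after quantile normalization. The causes were not tested, except that leaving out dim genes removes CEM1 and MGA2 by their levels.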

Other observations

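Beside the 10 genes, 4 probe sets carry lower-case symbols of the same letters, fas1, fas2, cho1 and cho2. These symbols are not in the S. cerevisiae table, and the organism they belong to is not given in the sources used here. Their values were far below those of the upper-case genes. The probe set fas1 was at 5.364 with baseline only, 5.41 with 1% spike and 5.364 with 10% spike. The probe sets fas2, cho1 and cho2 gave one value in all 3 arrays, 5.308 for fas2, 5.253 for cho1 and 3.999 for cho2. None of the 4 was higher in the 10% array than in the baseline array.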
